A study of Homo sapiens with 18 samples.

Results

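The suppressor of cytokine signalling (SOCS) family was followed in 2 human prostate cancer cell lines by RNA sequencing of poly(A) RNA. Its 8 members, SOCS1, SOCS2, SOCS3, SOCS4, SOCS5, SOCS6, SOCS7 and CISH, were taken by gene name from the 63241 genes of the deposited count table, with no threshold on any value, and all 8 had counts. LNCaP cells (androgen-responsive, from a lymph node metastasis) were treated for 24 h with genistein at 10 or 20 µM or with baicalein at 10 or 20 µM, and untreated LNCaP and untreated PC-3 cells (from a bone metastasis) were the other groups. Each of the 6 groups held 3 libraries. The labels call the LNCaP control untreated, whereas their treatment protocol describes a DMSO vehicle, and PC-3 was not given either drug. Both drugs are plant polyphenols with the same number of hydroxyl groups, genistein of the isoflavone and baicalein of the flavone class. The study examined them as sensitisers to a radioligand directed at prostate-specific membrane antigen. The family was chosen by name with earlier results of these counts in view (fold changes and CPM of the same libraries), so the adjusted p-values beside its members describe these libraries and are not independent evidence. Nothing in the labels says that the 3 libraries of a group came from separate cultures, so a p-value here weighs a change against library-to-library spread that could be purely technical.

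SOCS proteins are feedback brakes. Cytokine receptors activate Janus kinases (JAKs), which phosphorylate STAT transcription factors. The STATs switch on CISH, SOCS1, SOCS2 and SOCS3, whose proteins then bind the receptor or the kinase through an SH2 domain. The SOCS box at the end of each protein recruits elongin B, elongin C, CUL5 and RNF7 into a ubiquitin ligase. SOCS1 and SOCS3 also block JAK activity directly. SOCS4, SOCS5, SOCS6 and SOCS7 are tied mainly to growth factor and insulin receptor signalling. In prostate tumour cells SOCS3 is best known as a brake on interleukin 6 signalling, and SOCS2 as a brake on growth hormone signalling that androgen can raise.

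Promoter sequence from RefSeq (build GRCh38.p14) was at hand for 5 of the 8 members, and 2 of these are shown because they hold the motif through which each gene is classically described as being switched on. In the first, the 250 bases before the CISH start on the minus strand (chr3:50611775-50612024), capitals mark each match to TTCNNNGAA, the palindrome that STAT dimers bind. In the second, the 250 bases before the SOCS1 start on the minus strand (chr16:11256205-11256454), capitals mark the match to the letters GAAA repeated after 2 free bases, a motif bound by interferon regulatory factors, which was searched on both strands and chosen after expression values had been seen.
CISH: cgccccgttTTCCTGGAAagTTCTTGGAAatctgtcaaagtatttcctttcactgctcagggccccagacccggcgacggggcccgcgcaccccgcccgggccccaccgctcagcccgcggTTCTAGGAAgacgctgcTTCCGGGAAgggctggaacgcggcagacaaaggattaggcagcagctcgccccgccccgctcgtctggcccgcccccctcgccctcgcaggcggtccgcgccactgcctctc
SOCS1: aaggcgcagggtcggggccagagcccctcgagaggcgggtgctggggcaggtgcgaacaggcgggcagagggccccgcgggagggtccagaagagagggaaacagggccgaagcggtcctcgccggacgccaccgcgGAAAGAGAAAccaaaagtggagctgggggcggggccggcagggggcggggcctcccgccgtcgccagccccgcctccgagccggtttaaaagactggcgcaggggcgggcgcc
CISH held 4 matches to TTCNNNGAA, which began 241, 230, 129 and 112 bases before the start. None of the windows of SOCS1, SOCS4 and SOCS6 held one, and 7.66% of 35116 promoters of 300 bases (250 before and 50 after the start) did. The SOCS3 windows at hand held none either, but neither lay at the start of the counted SOCS3 gene (chr17:78360077). Their upstream parts were chr17:78360926-78361175 and chr17:78359668-78359917, so the sequence next to that start was not searched. SOCS1 held 1 match to the GAAA repeat, which began 113 bases before its start, against 3.57% of all promoters. A match is a description of the letters and not a measured binding site.

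The 8 genes lie on 7 chromosomes of build GRCh38 as annotated by GENCODE. SOCS1 is at chr16:11254417-11256204 on the minus strand, SOCS3 at chr17:78356778-78360077 on the minus strand and CISH at chr3:50606489-50611774 on the minus strand. SOCS2 is at chr12:93569814-93583487, SOCS4 at chr14:55027230-55049489 and SOCS5 at chr2:46698952-46780245, all on the plus strand. SOCS6 at chr18:70289045-70330199 and SOCS7 at chr17:38351844-38405593 are on the plus strand too, so chromosome 17 holds both SOCS3 and SOCS7.

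The libraries held 10013567 to 18445711 counts. Mitochondrially encoded genes took 12.5 ± 1.97% of the counts with baicalein at 20 µM (SD, n = 3) and group means of 4.55% to 6.05% in the other 5 groups. The labelled lines were told apart by markers: 4 PC-3 markers (VIM, CD44, CAV1 and AXL) summed to 2715 to 2965 CPM (counts scaled to a common library size) in untreated PC-3 and to 6.30 to 6.67 CPM in untreated LNCaP. With baicalein at 20 µM, 6 of 6 LNCaP markers stayed above 1 CPM, but their sum was 565 to 699.9 CPM, against 3156 to 3553 CPM in untreated LNCaP. In PC-3, 5 of these 6 were above 1 CPM and the sum was 375 to 414 CPM, so that threshold does not tell the lines apart. The 4 PC-3 markers summed to 20.9 to 21.9 CPM with baicalein at 20 µM. In bulk RNA, a lower share of cells of one kind and less RNA of the LNCaP markers per cell cannot be told apart.

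In untreated LNCaP, SOCS4, SOCS6 and SOCS5 were the abundant members, and the STAT-induced members were scarce. On the scale of CPM per kilobase of annotated exon, SOCS4 averaged 15.3 ± 3.42, SOCS6 6.13 ± 1.65 and SOCS5 3.55 ± 0.606 (SD, n = 3). SOCS2 followed at 1.30 ± 0.721, then SOCS7 at 0.615 ± 0.0230 and CISH at 0.312 ± 0.0621. SOCS1 at 0.0981 ± 0.113 and SOCS3 at 0.0414 ± 0.00367 came last, and theirs were the only neighbouring ranges in this order that overlapped. SOCS3 was at the edge of detection, with 2 counts in each of the 3 untreated libraries, and SOCS1 had 8, 1 and 1 counts.

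**Figure D1:**
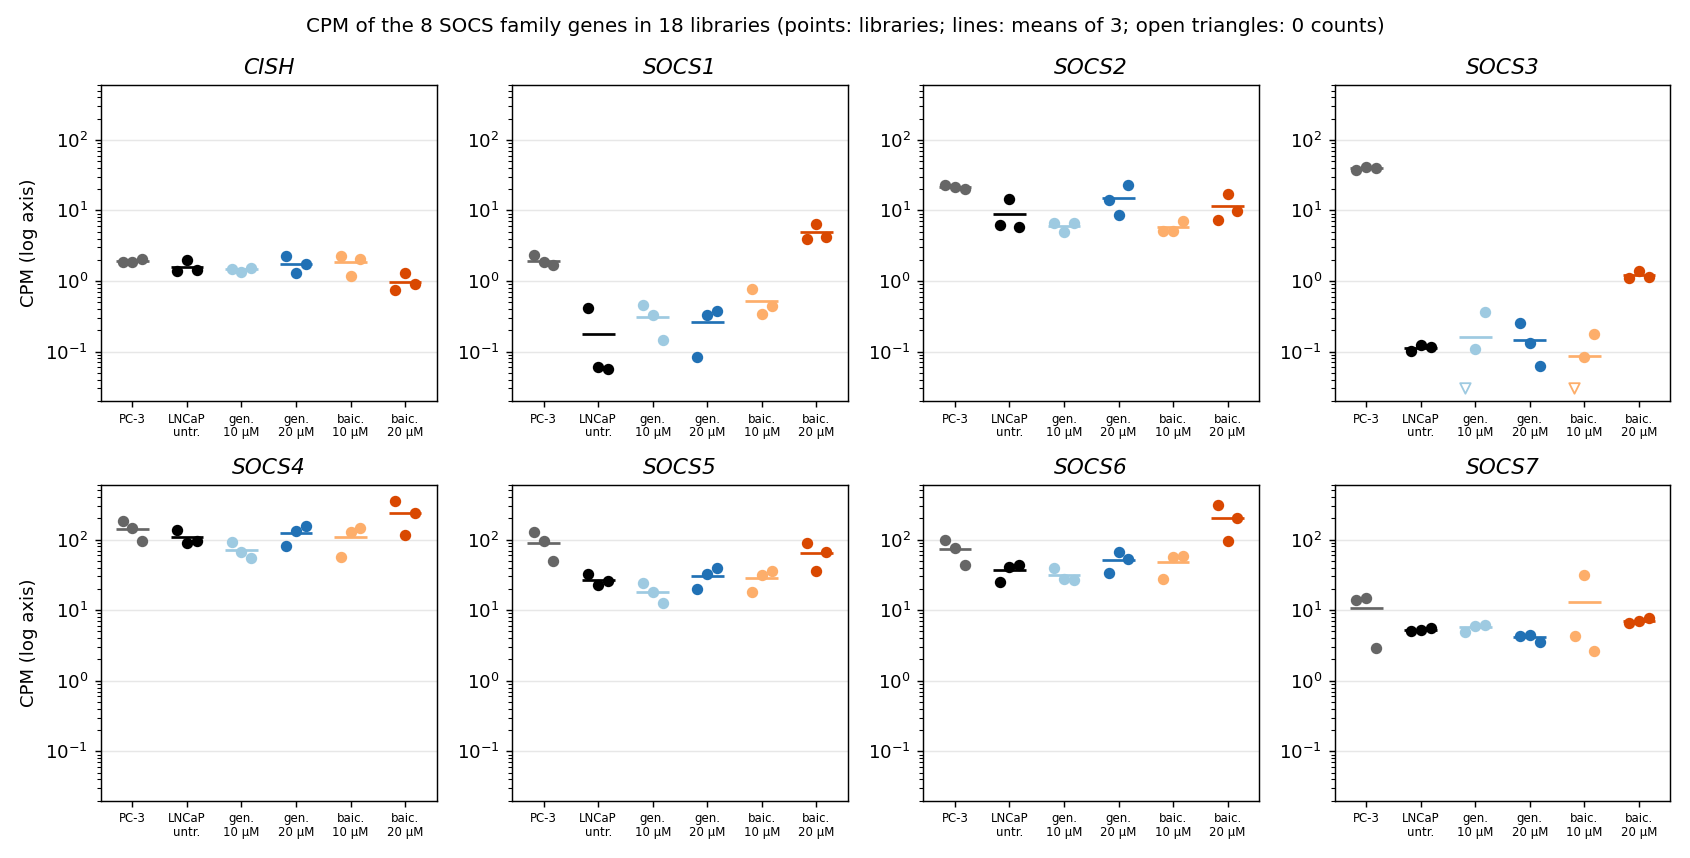
CPM (log axis) of the 8 members in every library of 6 groups: PC-3, untreated LNCaP (untr.), genistein (gen.) and baicalein (baic.), with points for libraries, lines for means of 3 and open triangles for 0 counts. SOCS1 and SOCS3 stand above all other LNCaP groups with baicalein at 20 µM, and SOCS3 reaches 37.6 to 41.1 CPM in PC-3.

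Members were called against untreated LNCaP with baicalein at 20 µM and in no other drug group. SOCS1, SOCS3, SOCS4, SOCS5 and SOCS6 rose against untreated LNCaP, CISH, SOCS2 and SOCS7 did not pass the test, and none fell. These 5 of 8 members called higher stand beside 57.2% of all 16985 genes tested that were called in either direction, with 29.4% called higher and 27.8% lower, by edgeR's quasi-likelihood test at an adjusted p under 0.05. The share of members called is near that of all genes, and whether it differs between the drugs was not tested. The median log2 fold change was 1.23 over the 8 members and 0.04 over all genes tested. The count of 5 and this median include SOCS1 and SOCS3, which passed the filter on low counts only through the baicalein 20 µM libraries. Both are therefore descriptions.

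SOCS1, the direct inhibitor of JAK1, JAK2 and TYK2 that limits interferon signalling, had 3.98, 6.51 and 4.19 CPM with baicalein at 20 µM, against 0.410, 0.0612 and 0.0575 CPM in untreated LNCaP. The lowest treated library was above the highest untreated one, and in counts the libraries held 43, 81 and 41 against 8, 1 and 1. The log2 fold change was 4.70 (SE 0.546, 95% interval 3.52 to 5.88, adjusted p = 8.79e-06). It ranged between 4.28 and 6.20 when each of the 6 libraries was left out in turn, with the highest value when untreated replicate 1, the library with 8 counts, was left out.

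SOCS3, which binds the IL6ST receptor chain and shuts off interleukin 6 signalling, had 1.11, 1.37 and 1.12 CPM with baicalein at 20 µM, against 0.103, 0.122 and 0.115 CPM in untreated LNCaP. These were 12, 17 and 11 counts against 2 in each untreated library, and the groups did not overlap. Its log2 fold change was 3.35 (SE 0.643, 95% interval 1.96 to 4.75, adjusted p = 0.0005). SOCS1 and SOCS3 passed the filter on low counts only through this group: with the baicalein 20 µM libraries left out, neither had enough counts to be tested, so both had to differ if they were tested at all.

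CISH and SOCS2, the other STAT-induced members, did not pass the test. CISH, which blocks STAT5 docking on receptors, had 0.741, 1.29 and 0.920 CPM with baicalein at 20 µM, against 1.38, 1.96 and 1.44 CPM in untreated LNCaP. All 3 treated values were below the untreated ones, but the log2 fold change of -0.64 (SE 0.307) had an adjusted p of 0.0914. Without treated replicate 2 it was called lower (log2 fold change -0.88, adjusted p = 0.0498). The promoter printed above with 4 STAT palindromes is thus that of a member with 8 to 16 counts per treated library. SOCS2, which restrains growth hormone signalling, had 7.41, 17.3 and 9.81 CPM with baicalein at 20 µM and 6.25, 14.4 and 5.75 CPM in untreated LNCaP, and the groups overlapped (log2 fold change 0.43, SE 0.424, adjusted p = 0.405).

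SOCS6, which associates with the insulin receptor and KIT, had 305, 95.7 and 200.02 CPM with baicalein at 20 µM, against 25.4, 41.3 and 43.5 CPM in untreated LNCaP. The groups did not overlap, although the treated libraries differed more than 3 times among themselves (log2 fold change 2.49, SE 0.426, 95% interval 1.57 to 3.42, adjusted p = 0.000277). SOCS5, which acts on epidermal growth factor and interleukin 4 receptors, had 89.0, 35.4 and 66.2 CPM with baicalein at 20 µM and 32.0, 23.1 and 25.7 CPM in untreated LNCaP. Every treated value was above every untreated one (log2 fold change 1.28, SE 0.363, adjusted p = 0.00911).

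SOCS4, which lowers epidermal growth factor receptor levels, had 354, 118 and 240.4 CPM with baicalein at 20 µM, against 135, 91.0 and 96.4 CPM in untreated LNCaP. Treated replicate 2 lay below untreated replicate 1, so the groups overlapped, and the log2 fold change of 1.19 (SE 0.420) had an adjusted p of 0.0283. This call was lost with no filter on low counts (adjusted p = 0.104), with the fit restricted to the compared groups (0.0505), and without untreated replicate 2 (0.0967) or 3 (0.0889) or treated replicate 1 (0.146) or 3 (0.0565). SOCS7, which binds the adaptor NCK and insulin receptor substrates, had 6.49, 6.99 and 7.77 CPM with baicalein at 20 µM and 5.13, 5.26 and 5.52 CPM in untreated LNCaP. These groups did not overlap, and the log2 fold change of 0.46 (SE 0.649) was not called in the fit over all LNCaP libraries (adjusted p = 0.569). With the fit restricted to the compared groups it was called at 0.48 (SE 0.141, adjusted p = 0.0278); the larger fit also holds a baicalein 10 µM library with 31.8 CPM.

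SOCS4 and SOCS5 ranked the 3 libraries in the same order inside each of the 6 groups, and SOCS6 shared that order in 4 of them. In untreated LNCaP SOCS6 was lowest in replicate 1 (25.4 CPM, against 41.3 and 43.5 CPM), where SOCS4 and SOCS5 were highest. With genistein at 20 µM SOCS6 was highest in replicate 2 (67.3 CPM), whereas SOCS4 and SOCS5 were highest in replicate 3. With baicalein at 20 µM all 3 were highest in replicate 1 and lowest in replicate 2, and in PC-3 all 3 were highest in replicate 1 and lowest in replicate 3. Their transcripts are poor in GC (35.3%, 37.5% and 38.0%, against a median of 49.1% over protein-coding genes). Their biological coefficients of variation of 0.357, 0.310 and 0.349 lay at percentiles 89, 90.2 and 90.6 of the 500 genes nearest in mean count. With the trend over GC content and length removed from each library, the baicalein 20 µM changes were 1.01 for SOCS4 (SE 0.136, adjusted p = 3.02e-05), 1.04 for SOCS5 (SE 0.152, adjusted p = 5.92e-05) and 2.26 for SOCS6 (SE 0.284, adjusted p = 1.72e-05). The mitochondrial share of the 3 libraries ran the other way, at 10.5%, 14.5% and 12.4% in replicates 1, 2 and 3, and its part was not tested beyond removing the mitochondrially encoded genes, after which the same number of members, 5, was called.

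The members were also compared within each library. The ratio of SOCS4 to SOCS5, in CPM per kilobase, was 1.55, 1.67 and 2.05 in PC-3, below every LNCaP library. It stayed between 3.35 and 4.62 in all 15 LNCaP libraries, while SOCS4 itself ranged there from 54.3 to 354 CPM. The ratio of SOCS6 to SOCS4 was 1.01, 0.957 and 0.979 with baicalein at 20 µM, against 0.221, 0.534 and 0.531 in untreated LNCaP and at most 0.601 in the 12 LNCaP libraries of the other groups. So SOCS6 was level with SOCS4 in each baicalein 20 µM library, whereas SOCS4 was ahead in each other library of the series. These ratios are descriptions, and untreated replicate 1 stood apart from its group in the second.

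**Figure D2:**
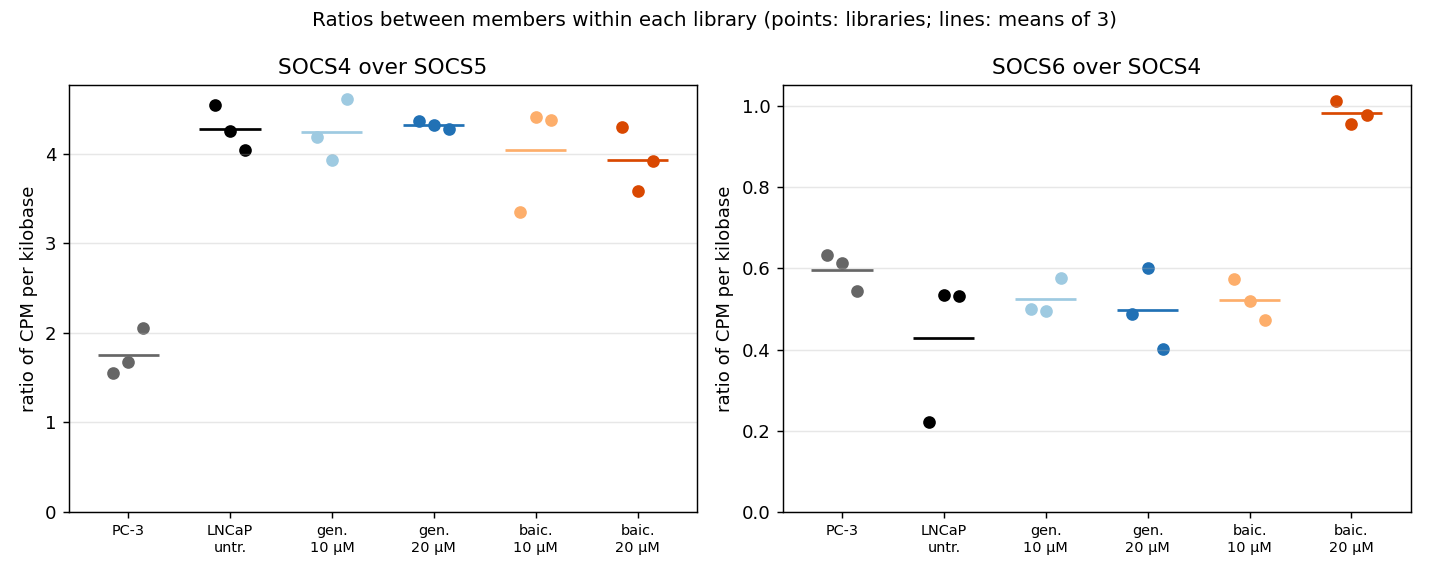
Ratios of CPM per kilobase between members within each library, for PC-3, untreated LNCaP (untr.), genistein (gen.) and baicalein (baic.), with points for libraries and lines for means of 3. SOCS4 over SOCS5 is 1.55 to 2.05 in PC-3 and 3.35 to 4.62 in LNCaP, and SOCS6 over SOCS4 is 0.957 to 1.01 with baicalein at 20 µM.

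No member passed the test with the lower dose of either drug or with genistein at 20 µM. The 0 of 8 calls stand beside 0.112% of all genes called with genistein at 10 µM, 0.4% with baicalein at 10 µM and 16.4% with genistein at 20 µM; at an unadjusted p under 0.05, 1458, 1907 and 5170 genes passed. DESeq2 also called 0 members in these 3 comparisons. SOCS1 had 0.764, 0.339 and 0.441 CPM with baicalein at 10 µM, which overlapped untreated LNCaP (log2 fold change 1.47, SE 0.700, 95% interval -0.04 to 2.99). With genistein at 20 µM it had 0.0838, 0.328 and 0.370 CPM, 1 to 6 counts per library (log2 fold change 0.60, 95% interval -1.04 to 2.23). SOCS3 held 0, 1 and 2 counts with baicalein at 10 µM and 3, 2 and 1 with genistein at 20 µM. Its log2 fold changes were -0.32 with baicalein at 10 µM (95% interval -2.66 to 2.03) and 0.34 with genistein at 20 µM (95% interval -1.64 to 2.33), so changes within these intervals were not detectable at this depth. SOCS4 had 54.3 to 155 CPM over the 9 libraries of these 3 drug groups, a span that holds the 91.0 to 135 CPM of untreated LNCaP.

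SOCS2 had 14.3, 8.48 and 22.8 CPM with genistein at 20 µM and 6.67, 4.89 and 6.64 CPM with genistein at 10 µM, and these 2 groups did not overlap. The log2 fold change of the dose step was 1.37 (SE 0.431, adjusted p = 0.0547), beside 13.2% of all genes called in that comparison. It was called with DESeq2, with all 18 libraries in 1 fit, with the GC and length trend removed and without genistein 20 µM replicate 2 (adjusted p = 0.0361). Against untreated LNCaP, whose replicate 2 had 14.4 CPM, the log2 fold change of SOCS2 was 0.86 (SE 0.420, adjusted p = 0.192). SOCS7 had 4.28, 4.47 and 3.58 CPM with genistein at 20 µM, each below the untreated values, with a log2 fold change of -0.31 (SE 0.657, adjusted p = 0.798).

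Raising baicalein to 20 µM from 10 µM changed 6 of 8 members, beside 54.4% of all genes (26.8% higher and 27.5% lower). SOCS1 (log2 fold change 3.22), SOCS3 (3.67), SOCS6 (2.07), SOCS5 (1.15) and SOCS4 (1.11) rose and CISH fell by 0.89. Over the groups SOCS3 held 40 counts at 20 µM and 3 at 10 µM, a scaled ratio of 14.0 with a 95% counting interval of 4.47 to 71.0. SOCS1 and SOCS3 passed the low-count filter only through the 20 µM libraries, so their calls are descriptions. The SOCS6 call held without any single library. CISH, with 0.741, 1.29 and 0.920 CPM at 20 µM and 2.29, 1.19 and 2.03 CPM at 10 µM, overlapped between the doses; its call (adjusted p = 0.0275) was lost with DESeq2 (0.0521), with the fit restricted to the compared groups (0.0943) and without any 1 of 4 libraries: baicalein 10 µM replicate 1 or 3, or baicalein 20 µM replicate 1 or 3. The SOCS4 call (adjusted p = 0.0404) was lost with no filter (0.115), with the fit restricted to the compared groups (0.0970), with the replicate block (0.0751) and without baicalein 10 µM replicate 1 or 2 or baicalein 20 µM replicate 1 or 3, and that of SOCS5 (0.0170) with no filter (0.0513) and without replicate 1 of either dose. SOCS2 did not pass (0.98, SE 0.439, adjusted p = 0.0770), but was called with DESeq2 (0.0452), with the fit restricted to the compared groups (0.0365), with the GC and length trend removed (0.0477) and without baicalein 20 µM replicate 1 (0.0480). SOCS7 had a log2 fold change of -0.86 in this step, and without baicalein 10 µM replicate 2, the library with 31.8 CPM, of 1.01 (adjusted p = 0.00169).

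Genistein and baicalein, which differ in the position of the phenyl ring and of the hydroxyl groups, were compared at each matched dose. At 10 µM no member differed by the test, beside 0.00589% of all genes; the log2 difference for SOCS1 was -0.73 (95% interval -2.16 to 0.70) and for SOCS6 -0.62 (95% interval -1.51 to 0.27), so differences of over 1 log2 unit remain possible. At 20 µM 5 of 8 members differed, beside 48.7% of all genes (25.4% higher and 23.3% lower). SOCS1 was lower with genistein by a log2 difference of -4.10 (SE 0.532, adjusted p = 3.86e-05), with 0.0838 to 0.370 CPM against 3.98 to 6.51 CPM with baicalein. SOCS3 (-3.01, SE 0.649, adjusted p = 0.00164), SOCS6 (-1.95, SE 0.418, adjusted p = 0.00198) and SOCS5 (-1.03, SE 0.362, adjusted p = 0.0322) were lower with genistein too, and CISH was higher (0.84, SE 0.309, adjusted p = 0.0379). The SOCS1 and SOCS3 differences are descriptions, since both members were tested only through the baicalein 20 µM libraries. SOCS4 (-0.93, 95% interval -1.84 to -0.03, adjusted p = 0.0824), SOCS7 (-0.77, interval -2.21 to 0.67) and SOCS2 (0.43, interval -0.49 to 1.34) did not pass; the SOCS4 difference was called with DESeq2 (adjusted p = 0.0408), with the GC and length trend removed (-0.77, adjusted p = 0.000368) and without baicalein 20 µM replicate 2 (0.0186), and that of SOCS7 with the fit restricted to the compared groups (-0.84, adjusted p = 0.0086). The calls for SOCS5 and CISH were lost with no filter (adjusted p = 0.107 and 0.0506), with the fit restricted to the compared groups (0.0688 and 0.0904), with the replicate block (0.0575 and 0.0631) and without genistein 20 µM replicate 1 or baicalein 20 µM replicate 1 or 3. The SOCS5 call was also lost without genistein 20 µM replicate 2, and the CISH call without genistein 20 µM replicate 3 and with DESeq2 (0.0796).

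The dose step differed between the drugs for 3 of 8 members, beside 32.8% of all genes in the same test. The genistein step minus the baicalein step was -3.37 for SOCS1 (SE 0.884, adjusted p = 0.0103), -3.80 for SOCS3 (SE 1.23, adjusted p = 0.0261) and 1.19 for CISH (SE 0.424, adjusted p = 0.0451). SOCS1 and SOCS3 were tested only through the baicalein 20 µM libraries, so their calls support nothing beyond the values above. The SOCS3 call was lost without genistein 10 µM replicate 3 (adjusted p = 0.202), baicalein 10 µM replicate 2 (0.0528) or genistein 20 µM replicate 2 (0.0515) or 3 (0.0574). The CISH call was lost with DESeq2 (0.0781), with RLE size factors (0.0542), with no filter (0.0658), with the fit restricted to the compared groups (0.0612), with the replicate block (0.0773) and in 9 of the 12 fits that left out 1 library. SOCS6 did not pass (-1.32, SE 0.577, adjusted p = 0.0982), but was called with the GC and length trend removed (-1.51, adjusted p = 0.00782). Without baicalein 10 µM replicate 2 the difference for SOCS7 was -1.46 (adjusted p = 0.00218).

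**Figure D3:**
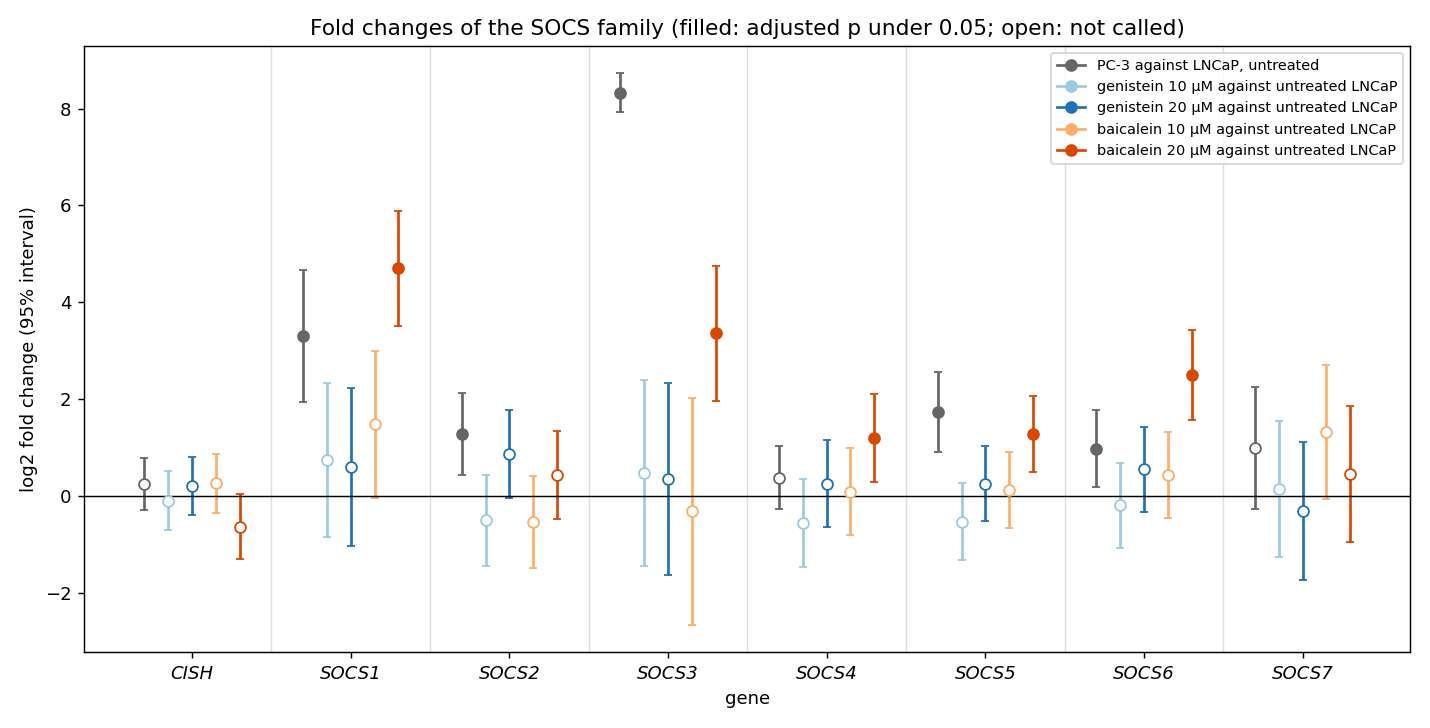
Log2 fold changes of the 8 members with 95% intervals, for PC-3 against LNCaP (both untreated) and for each drug group against untreated LNCaP; filled points have an adjusted p under 0.05. With baicalein at 20 µM SOCS1 is at 4.70 and SOCS3 at 3.35, and in PC-3 SOCS3 is at 8.33, while the points of the 3 other drug groups are open.

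SOCS3 was higher in untreated PC-3 than in untreated LNCaP cells, and SOCS1, SOCS2, SOCS5 and SOCS6 were higher as well. SOCS3 had 37.6, 41.1 and 40.1 CPM in PC-3, against 0.103, 0.122 and 0.115 CPM in LNCaP. The fitted difference was 321-fold (log2 fold change 8.33, SE 0.169, adjusted p = 2.57e-07), but the LNCaP side rests on 6 counts in all. The ratio of the summed, scaled counts was 348 with a 95% counting interval of 159 to 950, and the SE was 0.449 with all 18 libraries in 1 fit (log2 fold change 8.34) and 0.609 with DESeq2 (8.44). The 3 PC-3 libraries lay close together, at 39.6 ± 1.81 CPM (SD). The 5 of 8 members called, all higher, stand beside 74.9% of 17259 genes called in either direction, with 37% called higher and 37.9% lower. SOCS1 and SOCS3 passed the filter here through PC-3 alone.

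SOCS1 had 2.32, 1.83 and 1.69 CPM in PC-3, against 0.410, 0.0612 and 0.0575 CPM in LNCaP, and the lines did not overlap (log2 fold change 3.30, SE 0.577, adjusted p = 0.00142). SOCS2 had 22.8, 21.6 and 20.3 CPM in PC-3, all above the 6.25, 14.4 and 5.75 CPM of LNCaP (log2 fold change 1.28, SE 0.359, adjusted p = 0.0149). SOCS5 had 126, 95.3 and 49.5 CPM in PC-3, against 32.0, 23.1 and 25.7 CPM in LNCaP (log2 fold change 1.73, SE 0.343, adjusted p = 0.00309). Its PC-3 libraries differed more among themselves than SOCS2 did, and still lay above LNCaP.

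SOCS6 had 97.9, 77.0 and 43.5 CPM in PC-3 and 25.4, 41.3 and 43.5 CPM in LNCaP, and its lowest PC-3 library was level with the highest LNCaP one. Its call (log2 fold change 0.97, SE 0.335, adjusted p = 0.0336) was lost with no filter (0.0751), with the replicate block (0.0909) and without LNCaP replicate 1 (0.0938) or 2 (0.0598) or PC-3 replicate 1 (0.0851) or 2 (0.0695). SOCS4 (0.38, SE 0.273), SOCS7 (0.99, SE 0.525) and CISH (0.24, SE 0.229) did not pass. With the GC and length trend removed, SOCS4 (0.92, SE 0.0809, adjusted p = 5.91e-05) and SOCS7 (1.5, SE 0.543, adjusted p = 0.0399) were called. SOCS7 had 13.9 and 14.97 CPM in PC-3 replicates 1 and 2 and 2.94 CPM in replicate 3, and without replicate 3 both SOCS7 (1.44, adjusted p = 0.000215) and SOCS4 (0.61, adjusted p = 0.0427) were called.

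The order of the members therefore differed between the lines. Per kilobase of exon, PC-3 held SOCS4 at 20.0 ± 6.26 CPM, SOCS3 at 14.5 ± 0.663, SOCS6 at 12.2 ± 4.58 and SOCS5 at 11.9 ± 5.10 (SD, n = 3). Neighbouring ranges among these 4 overlapped, and SOCS5 did not overlap SOCS2, which came next. SOCS3 made up 23.7 ± 7.22% of the family's summed level in PC-3 and 0.153 ± 0.0237% in untreated LNCaP. With baicalein at 20 µM the order began with SOCS4 at 33.7 ± 16.8 and SOCS6 at 33.5 ± 17.5, which overlapped. SOCS1, at 2.73 ± 0.780, came next after SOCS5 and overlapped SOCS2 at 1.70 ± 0.759. CISH was then last at 0.192 ± 0.0543, below SOCS3 at 0.439 ± 0.0524 with no overlap.

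Some of these counts share a locus. SOCS1 overlaps RMI2, SOCS2 overlaps SOCS2-AS1 and CISH overlaps MAPKAPK3, each on the opposite strand, and no source used here says that strand was used in counting, so reads of a gene and its antisense partner cannot be told apart. RMI2 averaged 2.68 ± 0.241 CPM with baicalein at 20 µM and 5.69 ± 1.28 CPM in untreated LNCaP, which is the opposite direction to SOCS1. MAPKAPK3 averaged 30.4 ± 7.85 CPM with baicalein at 20 µM and 98.4 ± 5.83 CPM in untreated LNCaP, the same direction as CISH, and 301 ± 20.6 CPM in PC-3. SOCS2-AS1 averaged 3.31 ± 1.02 CPM in PC-3 and 1.78 ± 0.701 CPM in untreated LNCaP, and was below SOCS2 in both. Their part in the counts of the members was not tested.

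The kinases and factors upstream of the family changed in different directions with baicalein at 20 µM. JAK1, the kinase of interferon and interleukin 6 receptors, had 52.0, 25.2 and 55.3 CPM, against 10.0, 7.41 and 9.08 CPM in untreated LNCaP (log2 fold change 2.36, SE 0.264, adjusted p = 7.22e-06). TYK2 fell by 0.53 on the log2 scale (SE 0.137, adjusted p = 0.00508) and JAK2 did not pass (0.61, adjusted p = 0.0760). Of 6 STAT genes tested, 0 rose and 5 fell, with a median of -0.82, beside 29.4% of all genes called higher and 27.8% lower. STAT3, the factor that drives SOCS3 after interleukin 6, had 70.1, 96.5 and 70.1 CPM with baicalein at 20 µM and 149.8, 163 and 153 CPM in untreated LNCaP (log2 fold change -0.94, SE 0.131, adjusted p = 5.10e-05). STAT2 fell by 1.54, STAT5A by 1.03 and STAT5B by 0.31.

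Of 14 other STAT-induced genes tested with baicalein at 20 µM, 11 rose and 2 fell, beside 29.4% of all genes called higher and 27.8% lower. Their median log2 fold change was 1.31, against 0.04 over all genes. IRF1, an interferon-response factor that binds the motif shown for SOCS1, had 42.7, 53.4 and 45.6 CPM with baicalein at 20 µM, against 4.61, 3.67 and 3.56 CPM in untreated LNCaP (log2 fold change 3.61, SE 0.199, adjusted p = 1.75e-08). FOSL2 (1.57) and GADD45G (1.41) rose as well. With genistein at 20 µM, where no member was called, 5 of the 14 rose and 1 fell, beside 16.4% of all genes called in either direction. IRF1 was among those that rose (log2 fold change 1.43, SE 0.191, adjusted p = 0.000359). In the libraries with baicalein at 20 µM 4 leukocyte markers summed to 1.94 to 3.15 CPM, with CD3E at 0. The sum was 0.308 to 0.632 CPM in untreated LNCaP and 0.251 to 2.04 CPM with genistein at 20 µM. Only 1 of the 4 averaged above 1 CPM with baicalein at 20 µM, and their part in these changes was not tested.

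Of 5 cytokines tested that signal through JAKs, 4 rose with baicalein at 20 µM and 0 fell, beside the same shares of all genes. A cytokine scarce in untreated LNCaP can pass the filter on low counts through the baicalein 20 µM libraries alone, so this count is a description. LIF, which acts through IL6ST, had 7.51, 15.03 and 10.0 CPM, against 1.28, 1.16 and 0.690 CPM in untreated LNCaP (log2 fold change 3.40, SE 0.403, adjusted p = 1.15e-05). TSLP rose by 4.68 and IL15 by 2.59. Of 17 receptor chains, 4 rose and 6 fell, and IL6ST, the signal chain shared by the interleukin 6 family, rose with a log2 fold change of 1.37 (SE 0.483, adjusted p = 0.0280). With baicalein at 20 µM IL6ST had 767, 214 and 495 CPM, highest in replicate 1 and lowest in replicate 2 like SOCS4, SOCS5 and SOCS6 in that group.

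**Figure D4:**
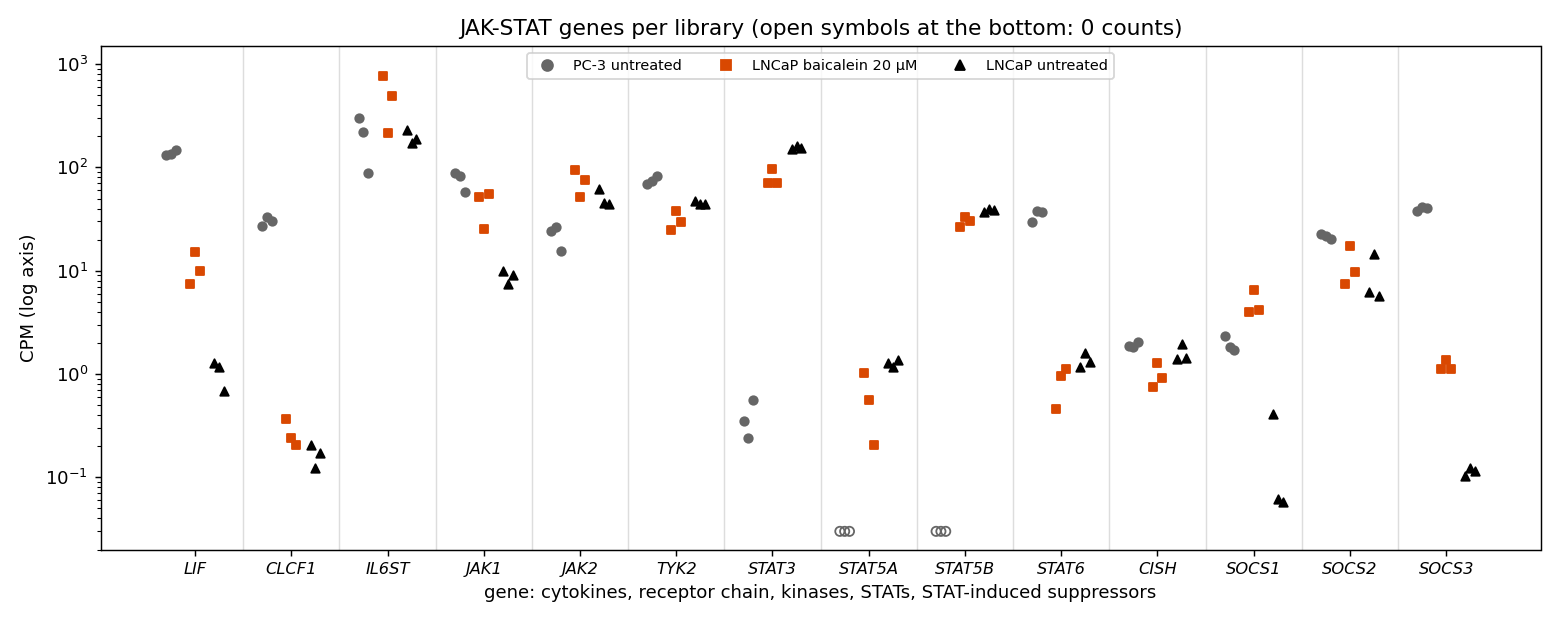
CPM (log axis) of cytokines, the IL6ST chain, JAKs, STATs and the 4 STAT-induced family members in untreated PC-3, LNCaP with baicalein at 20 µM and untreated LNCaP, 3 libraries each; open symbols at the bottom are 0 counts. PC-3 holds 37.6 to 41.1 CPM of SOCS3 beside 0.239 to 0.565 CPM of STAT3 and no counts of STAT5A or STAT5B.

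In PC-3 the high SOCS3 stood beside an almost silent STAT3. STAT3 had 0.348, 0.239 and 0.565 CPM in PC-3, against 149.8, 163 and 153 CPM in untreated LNCaP (log2 fold change -8.70, SE 0.224, adjusted p = 4.19e-07). STAT5B had 0 counts in the 3 PC-3 libraries against 2040 in LNCaP, at least 389-fold lower at a floor of 3 counts over the group, and STAT5A 0 against 68, at least 12.98-fold lower. STAT6 was higher, with 29.7, 38.0 and 37.4 CPM in PC-3 and 1.18, 1.59 and 1.32 CPM in LNCaP (log2 fold change 4.66, SE 0.177, adjusted p = 1.37e-06). Over the 6 STAT genes tested 2 were higher and 4 lower, beside 74.9% of all genes called in either direction. STAT3, STAT5A and STAT5B passed the filter on low counts through LNCaP alone. These 3 had to differ if they were tested at all, so the count of 4 lower is a description.

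JAK1 (log2 fold change 3.08), TYK2 (0.70) and JAK3 were higher in PC-3 and JAK2 was lower (-1.20, SE 0.231, adjusted p = 0.00269). JAK3 held 206 counts in PC-3 and 1 in LNCaP, a scaled ratio of 360 with a 95% counting interval of 63.9 to 14278. JAK3 passed the filter on low counts through PC-3 alone, so its difference is a description. Of 9 cytokines tested, 8 were higher in PC-3 and 0 lower, beside 37% of all genes called higher. Some of these cytokines had 0 counts in LNCaP and passed the filter on low counts through PC-3 alone. Those had to differ if they were tested at all, so the 8 of 9 is a description. LIF had 133, 136 and 147 CPM in PC-3, against 1.28, 1.16 and 0.690 CPM in LNCaP (log2 fold change 7.02, SE 0.222). CLCF1, another ligand of the IL6ST family, had 27.4, 33.0 and 30.3 CPM in PC-3, against 0.205, 0.122 and 0.172 CPM in LNCaP (log2 fold change 7.39, SE 0.203). IL6ST itself did not differ by the test (0.04, SE 0.414). Of 15 STAT-induced genes outside the family, 11 were higher and 2 lower in PC-3, beside 37% and 37.9% of all genes. GADD45G held 0 counts in PC-3 and 725 in LNCaP. It passed the filter on low counts through LNCaP alone, so the count of 2 lower is a description.

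The ligase partners that the SOCS box recruits were measured in every library. Of 9 tested, 5 rose with baicalein at 20 µM and 0 fell, a share called near the 57.2% of all genes, with a median of 0.37 against 0.04 over all genes. ELOB (0.72, SE 0.114), ELOC (0.76, SE 0.207) and RNF7 (0.52, SE 0.0867) rose, and CUL5, the scaffold, did not pass (-0.26, SE 0.341, adjusted p = 0.543). In PC-3, 7 of the 9 were higher and 1, CUL5, lower, beside 74.9% of all genes called. CUL5 averaged 68.2 ± 22.6 CPM in PC-3 and 169 ± 40.7 CPM in untreated LNCaP (log2 fold change -1.32, SE 0.294, adjusted p = 0.00534). ELOB (1.73) and ELOC (1.58) were higher.

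For the 5 members with a mean of at least 5 CPM over the LNCaP libraries, the protein-coding genes with the most similar profile over the 5 LNCaP group means were listed, by the root mean square difference of centred log2 CPM among 10489 candidates. SOCS4 was nearest to RAP2C (0.0373), CDC37L1 (0.0499) and SOCS5 (0.0510), where the median candidate was at 0.559. SOCS5 was nearest to ZNF354A (0.0309), SPRTN (0.0378) and PLEKHA3 (0.0478). SOCS6 was nearest to NRBF2 (0.101), SYF2 (0.112) and COA6 (0.122), and SOCS2 to ABI1 (0.0399), CEP57 (0.0499) and EFR3A (0.122). SOCS7, whose profile rests on 1 baicalein 10 µM library, was nearest to ZNF841 (0.1002), RPUSD1 (0.104) and ABHD17A (0.108). With 5 points per gene these are descriptions of shape alone.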

How the data were processed

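The submitters deposited whole-number read counts per gene for 18 libraries; per their processing notes the build was GRCh38 and the tools were DESeq2 1.20.0, featureCounts 1.6.4, STAR 2.7.6a and fastp. The roles of these tools are not given in the sources used here, and 18 FPKM columns and 13 of the authors' own comparisons were not used. Here, counts were scaled to CPM (with TMM factors over all 18 libraries) and tested with edgeR 4.0.16 (R 4.3.3, limma 3.58.1): quasi-likelihood F test, default filter on low counts, Benjamini-Hochberg adjustment over all genes tested, called at an adjusted p under 0.05. One fit held the 15 LNCaP libraries in 5 groups and another the 6 untreated libraries, each with group as the only term. DESeq2 1.42.0, other scalings, filters, sample sets, a replicate block, a GC and length correction and leaving out single libraries were alternatives. Scripts were tested on simulated data. Exon lengths and GC content came from GENCODE release 29. Counting intervals cover counting error only, at 95%. Totals of 10013567 to 18445711 counts leave genes of a few counts imprecise.

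The text names all 8 members, 12 fixed pathway genes and, of each of 9 pathway lists (134 genes), at most the 3 with the smallest adjusted p in a comparison. Members and lists were chosen with earlier results of these data known. Same-numbered libraries were not paired: in none of 9 comparisons did every same-number correlation of deviations exceed 0.1. Some genes of the marker and pathway lists are not reported here.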

Additional observations from a re-analysis of the deposited data

Results flagged for a closer look

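For 3 members the change with the step to 20 µM from 10 µM differed between the drugs by a test of that difference (edgeR, drug by dose term). The genistein step minus the baicalein step was -3.37 on the log2 scale for SOCS1, where genistein 20 µM libraries held 1, 5 and 6 counts and baicalein 20 µM libraries 43, 81 and 41. It was -3.80 for SOCS3, with 3, 2 and 1 counts for genistein at 20 µM and 12, 17 and 11 for baicalein at 20 µM. SOCS1 and SOCS3 passed the low-count filter only through the baicalein 20 µM libraries, so these differences are descriptions. It was 1.19 for CISH, with an adjusted p of 0.0451 that rose to 0.0781 with DESeq2.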

How the results depend on the processing

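Counts of members called were 5 with baicalein at 20 µM and 5 for PC-3 in the results above; under the other settings they were 4 to 5 and 4 to 7. For the genistein dose step, DESeq2, all 18 libraries in 1 fit and the removed GC and length trend each called 1 member. Between the drugs at 20 µM, no filter and the replicate block each called 3, and for the drug by dose difference the removed GC and length trend called 5. Same-numbered libraries did not pair (correlations of deviations -0.468 to 0.298, with 0 to 2 libraries per comparison correlating best with their own number). Signs turned with the GC and length trend removed for SOCS6 with genistein at 10 µM (0.052) and for SOCS2 between the drugs at 10 µM (-0.020), and also for SOCS2 with the compared groups alone (-0.011). Leaving out each library in turn gave 4 to 6 members called with baicalein at 20 µM and 4 to 7 for PC-3. It gave 0 to 1 for the genistein dose step and 3 to 6 for the baicalein dose step. It gave 3 to 6 for genistein against baicalein at 20 µM and 1 to 4 for the drug by dose difference. It also turned the sign of log2 values not called above, which ranged as follows. For genistein at 10 µM the ranges were SOCS3 -0.74 to 0.98, CISH -0.22 to 0.016. For baicalein at 10 µM the ranges were SOCS3 -1.21 to 0.22, SOCS4 -0.18 to 0.39, SOCS5 -0.079 to 0.36, SOCS7 -0.57 to 1.80. For genistein at 20 µM the ranges were SOCS3 -0.20 to 0.72, CISH -0.043 to 0.38. For the genistein dose step the ranges were SOCS1 -0.48 to 0.20, SOCS3 -0.63 to 1.09. For the baicalein dose step the ranges were SOCS7 -1.35 to 1.01. For genistein against baicalein at 10 µM the ranges were SOCS2 -0.053 to 0.21, SOCS3 -0.42 to 1.68, SOCS7 -1.66 to 0.70. For genistein against baicalein at 20 µM the ranges were SOCS2 -0.013 to 0.84. For the drug by dose difference the ranges were SOCS2 -0.047 to 0.80, SOCS4 -0.61 to 0.14, SOCS7 -1.46 to 0.90. The causes of these shifts were not tested. Over all genes with genistein at 20 µM, 1412 were higher and 1379 lower, against 1035 and 1572 with all 18 libraries in 1 fit and 1076 and 1685 without mitochondrially encoded genes. The count of genes called ranged over the other settings from 11 to 133 with genistein at 10 µM (19 as reported) and from 9 to 367 with baicalein at 10 µM (68), and from 1623 to 3475 for the genistein dose step (2246). Leaving out single libraries gave 1661 to 1938 genes with genistein at 20 µM (2791) and 1201 to 1777 for its dose step. A level order with another gene length was not run. SOCS1 and SOCS3, at 0 to 9 counts per library in LNCaP outside baicalein at 20 µM, are limited by depth.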

Other observations

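Of 16 other proteins that carry a SOCS box tested with baicalein at 20 µM, 10 rose and 2 fell, beside 29.4% of all genes called higher and 27.8% lower. Their median log2 fold change was 0.73, against 0.04 over all genes. A gene of this list scarce in untreated LNCaP can pass the filter on low counts through the baicalein 20 µM libraries alone. The count of 10 and the median are therefore descriptions. With genistein at 20 µM, 2 of the 16 rose and 0 fell, near the 16.4% of all genes called. The fit of the 6 untreated libraries had its own filter, so the genes tested there need not be these 16. Of those tested there, 6 were higher and 6 lower in PC-3, beside 74.9% of all genes called. ASB9 held 886 counts in PC-3 and 3 in LNCaP, a scaled ratio of 516 with a 95% counting interval of 176 to 2506. ASB9 passed the filter on low counts through PC-3 alone, so its difference is a description.

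Of 15 substrates and docking partners of the family tested with baicalein at 20 µM, 3 rose and 5 fell, and of 11 other brakes on JAK-STAT signalling 1 rose and 4 fell, shares called near the 57.2% of all genes. In PC-3, 4 of 14 substrates and partners were higher and 7 lower, beside 74.9% of all genes called. Some of these genes had at most 2 counts over the PC-3 libraries and passed the filter on low counts through LNCaP alone. The count of 7 lower is therefore a description.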
